A study of Mus musculus with 6 samples.

Results

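Tac1, Tac2, Cartpt and Nts encode the precursors of tachykinin, CART and neurotensin peptides, and Tacr1, Tacr3, Ntsr1 and Ntsr2 encode receptors for the tachykinins and neurotensin. These 8 genes were taken by symbol from the deposited count files, where all 8 were found among 54658 listed genes, and all 8 passed the expression filter that left 17563 tested genes. The samples were nucleus accumbens tissue, the ventral part of the striatum, from C57BL6 male mice that were 8 weeks old at purchase and kept on a reversed light cycle. In the Gas5 group (3 libraries, A to C) the tissue had received the long noncoding RNA Gas5 with EGFP from a herpes simplex virus p1005+ vector by microinjection, and in the GFP group (3 libraries, A to C) the same type of vector had carried EGFP only. All 6 samples therefore carry the injection, the virus and EGFP, and their labels name no drug treatment. Whether each sample came from 1 animal or from a pool is not labelled, nor is the share of cells that took up the vector, and p-values therefore reflect only the spread among these samples, which may be technical. The study concerns a role of Gas5 in how cocaine acts, and the question addressed is whether these peptide genes differed between the 2 groups.

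Neuropeptides are cut from larger precursors, stored in dense-core granules and released to act on G protein-coupled receptors. In the striatum Tac1, the precursor of substance P and neurokinin A, is a classical product of the medium spiny neurons that carry the D1 dopamine receptor, and substance P acts mainly through the receptor encoded by Tacr1, which is found on striatal interneurons. CART peptide and neurotensin are made by subsets of accumbens neurons and both are known for their ties to dopamine signalling and psychostimulants. Neurokinin B, from Tac2, prefers the receptor encoded by Tacr3, and neurotensin acts through the high-affinity receptor Ntsr1 and the lower-affinity receptor Ntsr2, the latter enriched in astrocytes.

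Total counts ranged from 32359052 to 56081575 per library, and mitochondrial genes held at most 2.52% of them. Gas5 itself stood at 22.6, 23.3 and 23.6 CPM (the count scaled to the TMM-adjusted library total) in the Gas5 libraries. In the GFP libraries it stood at 18.6, 16.5 and 18.3 CPM. This was a log2 fold change of 0.38 with an edgeR adjusted p of 0.0163, which rose to 0.0727 without GFP B and 0.0677 without GFP C. Markers of medium spiny neurons were abundant in all 6 libraries, with a summed level between 7345 and 9368 CPM over 9 genes. Values per library are given in the order A, B, C throughout. Libraries differed in markers of other cell types. The cortical marker score, the mean log2 CPM of 11 genes of cortical excitatory neurons, was 1.997, 2.67 and 2.86 with Gas5 and 3.85, 4.34 and 4.39 with GFP. In bulk tissue, fewer cells of a type and less RNA per cell cannot be told apart.

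The 8 genes lie on 6 chromosomes of GRCm38, and their coordinates in the files equal those of GENCODE M21. Tac1 spans chr6:7554879-7565834 and Tacr1 spans chr6:82402334-82560104, both on the plus strand. Tac2 lies at chr10:127724478-127731768 on the plus strand and Nts at chr10:102481756-102490486 on the minus strand. Cartpt is the shortest, at chr13:99898489-99901091 on the minus strand. Tacr3 lies at chr3:134829007-134934579, Ntsr1 at chr2:180499976-180544980 and Ntsr2 at chr12:16653382-16660227, all on the plus strand. None of the 8 spans overlaps another listed gene, so each was counted over its whole length. Exons make up 49.1% of the span of Cartpt and 45.6% of that of Ntsr2, but 4.11% of Tacr1 and 3.56% of Tacr3, so the counts of the long receptor genes can hold a larger part of unspliced RNA.

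The windows around the transcription starts were searched for motifs of signal-dependent transcription and core promoter elements, on both strands, from 250 bases before to 50 bases after the RefSeq start on GRCm38. All 8 genes matched a window by symbol. The 8-letter cAMP response element TGACGTCA was found for Cartpt alone of the 8, and in 1.79% of 32851 windows. The AP-1 motif TGANTCA was found for Nts alone, against 7.81% of all windows, and the TATA box TATAAA for Tacr3 alone, against 13.6%. The GC box GGGCGG was present for Tac1 and Cartpt (35.7% of all windows) and the E-box CANNTG for all 8 (72.3%). These 3 stretches are shown because each holds one of the rarer matches, written 5′ to 3′ on the strand of the gene with that match in capitals, and in none of them does it overlap an E-box or a GC box.
Cartpt: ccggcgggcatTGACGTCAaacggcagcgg
Nts: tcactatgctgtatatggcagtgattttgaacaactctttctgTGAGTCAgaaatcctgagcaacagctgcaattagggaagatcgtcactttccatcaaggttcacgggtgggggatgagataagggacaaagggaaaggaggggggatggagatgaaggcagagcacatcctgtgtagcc
Tacr3: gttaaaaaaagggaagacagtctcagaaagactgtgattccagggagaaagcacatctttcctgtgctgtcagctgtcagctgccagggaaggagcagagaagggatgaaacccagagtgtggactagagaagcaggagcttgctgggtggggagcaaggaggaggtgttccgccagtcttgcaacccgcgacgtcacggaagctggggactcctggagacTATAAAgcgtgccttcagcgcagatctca
The Cartpt stretch, chr13:99900777-99900806 on the minus strand, holds the 30 bases around the motif, which begins 112 bases before the RefSeq start and lies within an exon of a longer GENCODE transcript. The Nts stretch is chr10:102490487-102490668 on the minus strand, with the motif beginning 207 bases before the RefSeq start. The Tacr3 stretch is chr3:134828757-134829006 on the plus strand, with its TATA box beginning 29 bases before the start. A match is a description of the letters, and no measurement here reads the use of these elements.

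Levels were compared between genes as CPM per kb of span. Tac1 ranked first, between 6.42 and 8.82 CPM per kb over the 6 libraries, followed by Cartpt between 2.41 and 7.39 and Ntsr2 between 3.56 and 4.65. The range of Cartpt overlapped those of Tac1 and Ntsr2, while every Tac1 value lay above every Ntsr2 value. Nts came next at 0.847 to 1.23 CPM per kb, below every Ntsr2 value. Tacr1, at 0.186 to 0.259, lay below all Nts values and just met the range of Tac2, at 0.0777 to 0.188. Ntsr1, at 0.0390 to 0.0737, and Tacr3, at 0.0322 to 0.0711, were lowest and overlapped each other. Because spans hold introns, a spliced, compact gene gains in this order over a long one.

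No member passed the test between the groups. With the quasi-likelihood test of edgeR, 0 of 8 were called higher and 0 lower, where 1.48% of all tested genes were called higher and 3.96% lower, 5.44% in all. The adjusted p-values of the 8 ran from 0.116 to 0.784. At an unadjusted p under 0.05 there were 4 of the 8, beside 21.4% of all tested genes. These were Tac2, Tacr3 and Cartpt with higher values in the Gas5 group, beside 10.2% of all tested genes, and Ntsr1 with lower values, beside 11.2%. The groups did not overlap for 2 of the 8, Tac2 and Tacr3, beside 27.7% of all tested genes. Both were higher in the Gas5 group, as were 13.8% of all tested genes, and 0 were lower, beside 13.9%. The median log2 fold change of the 8 was 0.16, beside 0.02 over all tested genes. DESeq2 and limma-voom also called 0 of the 8, with 3 and 4 at an unadjusted p under 0.05.

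**Figure D1:**
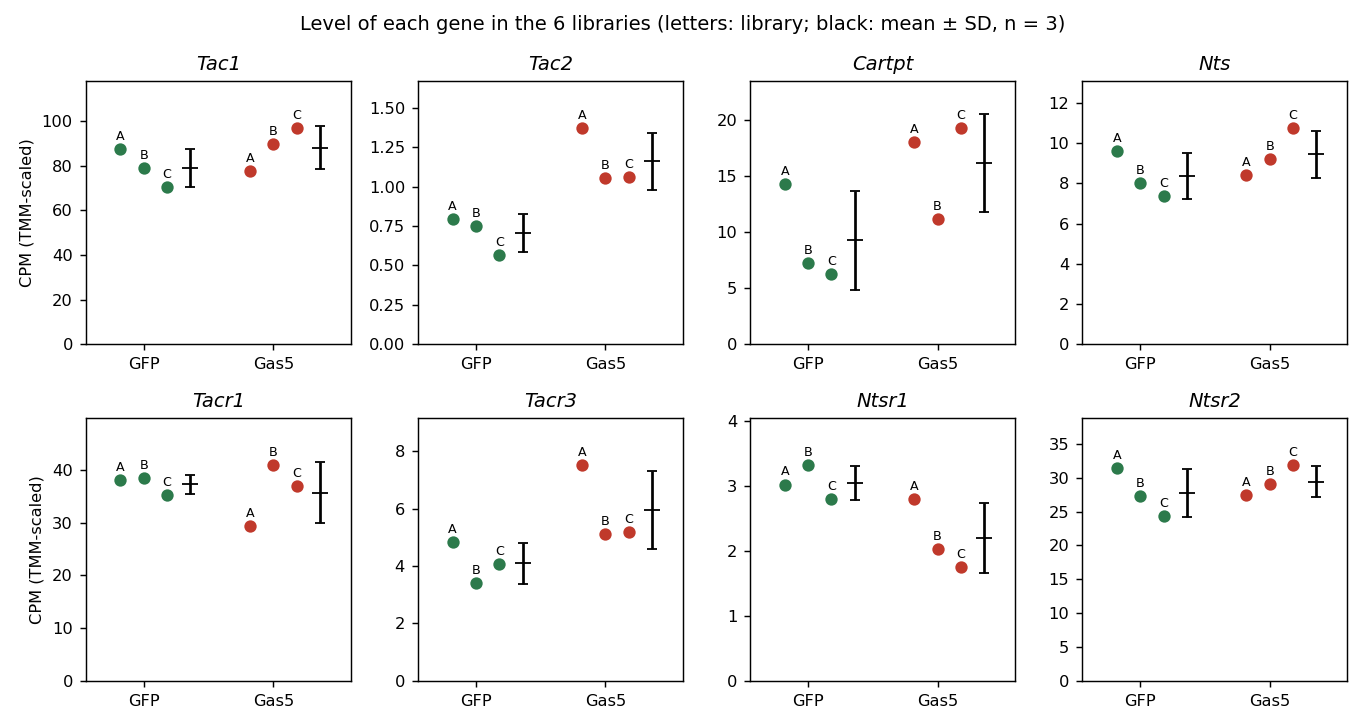
Level of each of the 8 genes in TMM-scaled CPM (vertical axis, from 0) in the 3 GFP and 3 Gas5 libraries, with letters naming the libraries and black marks for the mean ± SD (n = 3). The groups are separate for Tac2 and Tacr3, and Cartpt has the widest spread, from 6.26 CPM in GFP C to 19.2 CPM in Gas5 C.

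Among the peptide precursors, Tac1 was the most abundant, at 77.7, 89.6 and 96.7 CPM in the Gas5 libraries, against 87.6, 78.9 and 70.3 CPM in the GFP libraries. The groups overlapped, since Gas5 A lay below both GFP A and GFP B. The log2 fold change was 0.15 with a 95% confidence interval from -0.07 to 0.38 and an edgeR adjusted p of 0.402, so the interval of the fold runs from 0.955 to 1.30. This gene was measured tightly, with a coefficient of variation of 10.9% in each group.

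Tac2, the neurokinin B precursor, was the rarest of the 8 in CPM, with 59, 45 and 41 reads in the Gas5 libraries and 44, 29 and 18 reads in the GFP libraries. Scaled, these were 1.37, 1.05 and 1.06 CPM against 0.791, 0.752 and 0.566 CPM, so every Gas5 library lay above every GFP library. The log2 fold change was 0.70 (standard error 0.225), with a 95% confidence interval from 0.19 to 1.21 and an edgeR adjusted p of 0.116. An exact 2-sided permutation of the libraries gave p = 0.1, which is the smallest value possible for 3 against 3. Counting error alone is wide here, since 18 reads have an exact 95% Poisson interval from 10.7 to 28.4 and 59 reads one from 44.9 to 76.1.

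Cartpt, the CART peptide precursor, varied most between libraries. It stood at 18.01, 11.2 and 19.2 CPM in the Gas5 libraries, against 14.3, 7.21 and 6.26 CPM in the GFP libraries, and GFP A lay above Gas5 B. The means were 16.1 CPM ± 4.36 and 9.27 CPM ± 4.41 (SD, n = 3 each), a coefficient of variation of 27.0% and 47.6%. The log2 fold change was 0.77 (standard error 0.310), with a 95% confidence interval from 0.06 to 1.47 and an edgeR adjusted p of 0.197. Without GFP A the log2 fold change was 1.26 and the gene was called, with an edgeR adjusted p of 0.0294. It was also called without the expression filter, with an edgeR adjusted p of 0.0477 at a log2 fold change of 0.77. Only these 2 of 16 alternatives called Cartpt. Its log2 fold change fell to 0.62 (edgeR adjusted p 0.378) when Gas5 C was dropped. Dropping GFP B gave 0.61 (0.457), and dropping GFP C gave 0.56 (0.445). The unadjusted p was 0.0731 with DESeq2 and 0.0824 with robust dispersion in edgeR.

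Nts, the precursor of neurotensin and neuromedin N, was found at 8.41, 9.21 and 10.7 CPM in the Gas5 libraries, against 9.62, 8.04 and 7.39 CPM in the GFP libraries. The groups overlapped, with GFP A second highest. Its log2 fold change was 0.17, with a 95% confidence interval from -0.12 to 0.45 and an edgeR adjusted p of 0.486.

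The receptors showed no common direction. Tacr1, the substance P receptor gene, stood at 29.4, 40.9 and 36.9 CPM in the Gas5 libraries, against 38.1, 38.5 and 35.3 CPM in the GFP libraries. Gas5 A held the lowest value and Gas5 B the highest, and the coefficient of variation was 16.4% with Gas5 and 4.68% with GFP. The log2 fold change was -0.06, with a 95% confidence interval from -0.31 to 0.18 and an edgeR adjusted p of 0.784, and it was 0.05 without Gas5 A.

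Tacr3, the neurokinin B receptor gene, stood at 7.51, 5.12 and 5.18 CPM in the Gas5 libraries, against 4.82, 3.40 and 4.06 CPM in the GFP libraries. All 3 Gas5 values lay above all 3 GFP values, with Gas5 A well above the other two and Gas5 B close to GFP A. The log2 fold change was 0.53 (standard error 0.186), with a 95% confidence interval from 0.10 to 0.95 and an edgeR adjusted p of 0.144. The exact 2-sided permutation p was again 0.1. Without Gas5 A the log2 fold change was 0.31, with an edgeR adjusted p of 0.355.

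Ntsr1, the high-affinity neurotensin receptor gene, had the most negative log2 fold change of the 8 and did not pass the test. It stood at 2.81, 2.03 and 1.75 CPM in the Gas5 libraries, from 121, 87 and 68 reads, against 3.02, 3.32 and 2.80 CPM in the GFP libraries, from 168, 128 and 89 reads. The groups overlapped only where Gas5 A lay just above GFP C. The log2 fold change was -0.47 (standard error 0.186), with a 95% confidence interval from -0.89 to -0.04 and an edgeR adjusted p of 0.189. Without Gas5 A it was -0.69, with an edgeR adjusted p of 0.0592.

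Ntsr2, the lower-affinity neurotensin receptor gene, did not pass the test, at 27.5, 29.0 and 31.9 CPM in the Gas5 libraries, against 31.5, 27.4 and 24.4 CPM in the GFP libraries. The groups overlapped over most of their range. Its log2 fold change was 0.08, with a 95% confidence interval from -0.14 to 0.30 and an edgeR adjusted p of 0.673. The interval of the fold therefore runs from 0.910 to 1.23.

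**Figure D2:**
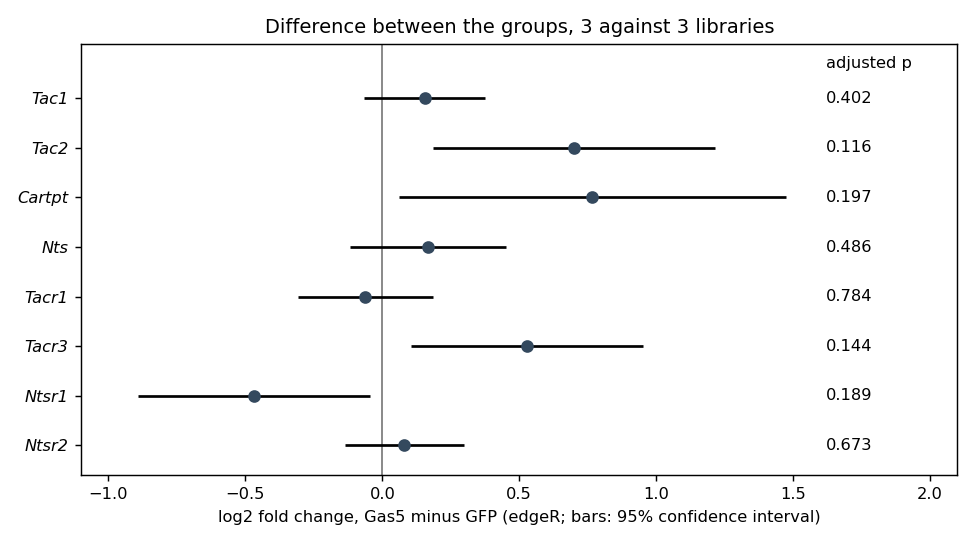
Log2 fold change of the 8 genes, Gas5 minus GFP (horizontal axis), with 95% confidence intervals from edgeR and the adjusted p at the right. The intervals of Tac2, Cartpt, Tacr3 and Ntsr1 leave out 0 before adjustment, and no adjusted p is below 0.116.

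Across the 6 libraries the 8 genes followed different courses. Tac1, Nts and Ntsr2 shared one, with Pearson correlations of log2 CPM of 0.97 for Tac1 and Nts, 0.96 for Nts and Ntsr2 and 0.94 for Tac1 and Ntsr2, and all 3 were highest in Gas5 C and lowest in GFP C. Tac2 and Tacr3 correlated at 0.86, and each correlated with Cartpt, at 0.81 and 0.80. Cartpt correlated nearly as much with Nts, at 0.79, with Ntsr2, at 0.75, and with Tac1, at 0.67. Ntsr1 correlated negatively with the other 7 genes, down to -0.70 with Tac1. These values describe 6 libraries that share group, scaling and tissue makeup.

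Each member was then compared with 12287 other tested genes for the closest course over the 6 libraries. Closest to Tac1 were Ankk1, Tenm4 and Heatr6 (correlations of 0.98), and closest to Nts were Tenm4, Gprin3 and Pptc7 (at least 0.99). Tac2 was closest to Mettl5, Mboat7 and Grb10, and Tacr3 to Zfp791, Zfp92 and H3f3b. Of these Grb10 passed the test, at a log2 fold change of 0.43 with an edgeR adjusted p of 0.0241. Cartpt was closest to Adam7, Stra6, a receptor gene of retinol uptake, and Lmcd1. Adam7 and Stra6 had log2 fold changes near that of Cartpt, at 0.74 and 0.75, and did not pass the test, with edgeR adjusted p of 0.219 and 0.203. Tacr1 was closest to Dnaja3, Tmem136 and Zswim6, Ntsr1 to Prkar1a, Sema6c and Armcx1, and Ntsr2 to Vps41, Fbll1 and Nhlrc3. With 6 points such likeness is common: 224 genes correlated above 0.95 with Tac2, 150 with Tacr3, 110 with Cartpt and between 15 and 36 with each of the other 5 members.

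Of the other genes around these peptides, those for processing and release had members that fell. Of 9 granule protein genes 3 fell and 0 rose, and of 9 precursor processing genes 1 fell and 0 rose. Over all tested genes 3.96% were called lower and 1.48% higher, and 21.4% had an unadjusted p under 0.05. The same shares stand beside the counts of every list that follows. Pcsk1, the convertase that starts the cutting of peptide precursors, stood at 16.9, 12.8 and 18.7 CPM in the Gas5 libraries, against 27.8, 31.5 and 33.3 CPM in the GFP libraries. It fell by 0.94 on the log2 scale (1.91-fold lower with Gas5, edgeR adjusted p 0.010), and the call was lost without GFP B (0.0518) and without GFP C (0.0557). Pcsk2, the second convertase, had -0.28 on the same scale and did not pass the test (edgeR adjusted p 0.137). DESeq2 called 3 of the 9 processing genes lower, and edgeR called 2 lower without the expression filter and 2 without GFP A. Over the processing list the median log2 fold change was -0.11, beside 0.02 over all tested genes.

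Cadps2, which primes dense-core granules for release, was 2.25-fold lower in the Gas5 group, at 39.2 CPM ± 7.86 against 88.2 CPM ± 12.2 (SD, n = 3 each), with an edgeR adjusted p of 0.00809. Its relative Cadps was 1.43-fold lower and Chgb, a granule core protein, 1.38-fold lower, with edgeR adjusted p of 0.0115 and 0.0427. Without GFP B or without GFP C only Cadps2 of the list was called. The Chgb call was also lost without Gas5 A (edgeR adjusted p 0.0696), Gas5 C (0.0903) or GFP A (0.0578), and with robust dispersion (0.0544). Scg2, Scg3 and Ptprn2 in the same list had positive log2 fold changes of 0.13, 0.15 and 0.07 and did not pass the test. The list's median was -0.16.

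Beside these decreases the mean cortical marker score was 2.51 ± 0.454 with Gas5 and 4.19 ± 0.298 with GFP (SD, n = 3 each). With that score as a covariate the log2 fold changes were -0.71 for Pcsk1, -1.02 for Cadps2, -0.05 for Cadps and 0.07 for Chgb. Their standard errors were 0.373, 0.444, 0.126 and 0.245, in the same order. With the covariate edgeR called 0 genes in either direction over the whole table, with 395 at an unadjusted p under 0.05. Group and score are close to confounded in this design, so the loss of calls does not separate them. DESeq2 and limma-voom were not run with the covariate. Without it, edgeR called 260 genes higher and 695 lower, or 365 and 532 when libraries were scaled by total count.

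The remaining lists of peptide-related genes had no call. Of the 4 other tachykinin and neurotensin genes 3 were tested, and Sort1, which encodes a sorting receptor that binds neurotensin, and Sorl1, its relative, had log2 fold changes of -0.15 and 0.07 with edgeR adjusted p of 0.260 and 0.473. Tacr2, the neurokinin A receptor gene, had no more than 0.0778 CPM in any library and was not tested. Of 9 peptide-degrading enzymes 0 were called and 1 had an unadjusted p under 0.05, with the smallest p for Ece1 (log2 fold change -0.21, edgeR adjusted p 0.0992) and Ide (0.21, 0.345). Of 15 genes for Gq coupling and desensitisation, the pathway that tachykinin and neurotensin receptors use, 0 were called and 6 had an unadjusted p under 0.05. Over all tested genes 21.4% had such a p. The smallest p belonged to Plcb4, a phospholipase C gene, at a log2 fold change of -0.26, and Gna14, a Gq family subunit gene, at 0.50, with edgeR adjusted p of 0.0515 and 0.0528. In that list 1 gene was called higher and 2 lower with DESeq2 and also without the expression filter, 1 in each direction with robust dispersion, 1 lower with RLE scaling, and 1 higher with upper quartile scaling and without Gas5 B. Of the peptide-degrading enzymes DESeq2 called 0, and 1 was called lower without Gas5 B.

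**Figure D3:**
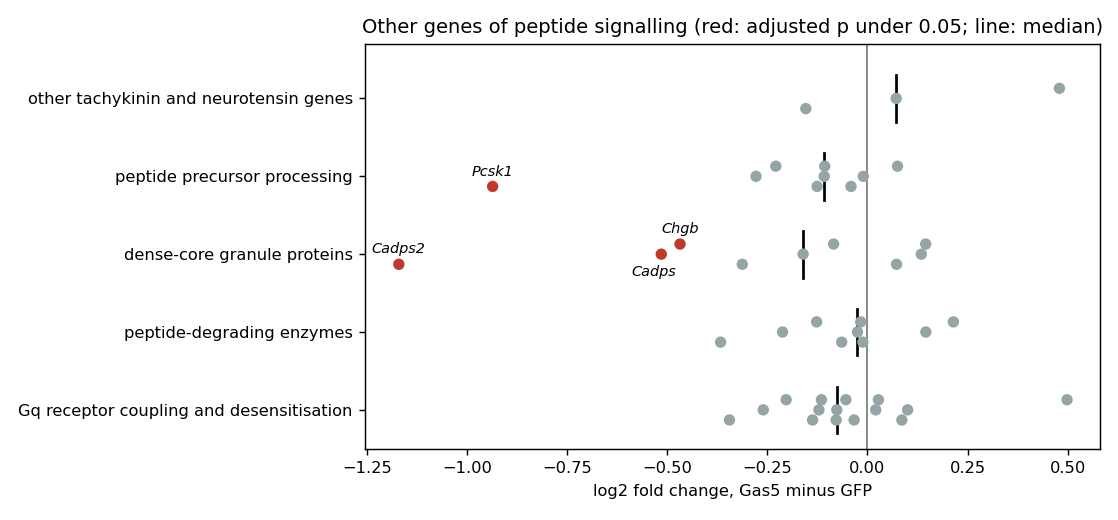
Log2 fold change, Gas5 minus GFP (horizontal axis), of each tested gene in 5 lists around the peptides, 1 point a gene, with red for an edgeR adjusted p under 0.05 and a black line for the list's median. The red points, Pcsk1, Cadps2, Cadps and Chgb, lie at -0.94, -1.17, -0.51 and -0.47, and the highest point is Gna14 at 0.50.

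The cell types known to carry these genes were described from marker lists. Of 6 markers of D1 medium spiny neurons, where Tac1 is made, 1 rose and 0 fell. That marker was Isl1, a transcription factor gene, at 1.64-fold with an edgeR adjusted p of 0.0345, a call lost when Gas5 C, GFP B or GFP C was left out. Pdyn, the dynorphin precursor gene often found in the same cells as Tac1, had a log2 fold change of 0.37 and an edgeR adjusted p of 0.0551, and Drd1 had 0.03. Sfxn1, Chrm4 and Eya1 had 0.14, 0.01 and -0.26, and none of these passed the test. Which cells the Isl1 reads came from was not tested. The median of the D1 list was 0.08 and that of the D2 list 0.15. In D2 medium spiny neurons 0 of 5 were called and 1 had an unadjusted p under 0.05, with the smallest p for Sp9 (0.29) and Gpr6 (0.20). Among the general markers of medium spiny neurons 0 of 9 were called and 1 had an unadjusted p under 0.05, with Bcl11b at -0.16 and Rarb at 0.13. DESeq2 called 2 of the D1 markers, both higher, and 0 of the D2 and general markers.

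Of 9 tested striatal interneuron markers 1 fell and 0 rose. It was Vip, a peptide gene also typical of cortical interneurons, at 0.510, 0.748 and 1.08 CPM in the Gas5 libraries against 1.92, 1.996 and 2.58 CPM in the GFP libraries, with an edgeR adjusted p of 0.0218 that was not reached without GFP B or GFP C. Slc5a7, the choline transporter gene of cholinergic neurons, had a log2 fold change of 0.40 and did not pass the test, with an edgeR adjusted p of 0.149. Slc18a3 is listed at 0 because it lies within Chat. The Tacr1 receptor is known on cholinergic interneurons and on those that make somatostatin. The cholinergic markers Chat and Slc5a7 had log2 fold changes of 0.25 and 0.40, and Sst, Npy and Nos1, markers of the other kind, had -0.28, -0.19 and -0.01, and none of these 5 passed the test.

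Ntsr1 is known in cortex as a marker of the layer 6 neurons that project to the thalamus. Of 5 markers of those cells 1 rose and 0 fell, namely Crym, which striatal neurons also express, at 1.48-fold with an edgeR adjusted p of 0.0164. Rprm stood at -0.57 on the log2 scale (edgeR adjusted p 0.0582). The Crym call was lost without GFP B or GFP C. Cortical excitatory markers overall had 8 of 11 lower and 0 higher, with a median of -2.62 and Tbr1 and Nrn1 at -2.62 and -2.83. Markers of the claustrum and layer 6b had 4 of 5 lower, with a median of -2.73 and Nr4a2 and Ctgf at -3.54 and -2.94. Without GFP B or without GFP C there were 4 and 1 calls in these lists. The summed cortical excitatory level was 189 to 247 CPM in the Gas5 libraries and 413 to 554 CPM in the GFP libraries.

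When the cortical marker score was added as a covariate, the log2 fold change of Ntsr1 was -1.34 with a standard error of 0.454, and those of Tac2, Cartpt and Tacr3 were -0.11, -0.35 and -0.62, with standard errors of 0.572, 0.730 and 0.315. Tacr1 moved to 0.41. Each of these had an edgeR adjusted p of 0.9997. The score was lower in all 3 Gas5 libraries than in any GFP library, so group and score are close to confounded in this design.

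Some markers of other cell types also differed between the groups in the same libraries. Markers of preoptic, stria terminalis and hypothalamic neurons, regions where Nts and Tac2 are also made, had 1 of 6 tested members higher and 0 lower, Calcr at a log2 fold change of 2.23, with Dlk1 at 0.97 and an edgeR adjusted p of 0.0648. Their summed level over 11 genes was 25.1 to 37.7 CPM in the Gas5 libraries and 15.8 to 20.3 CPM in the GFP libraries. Of this Calcr alone held a mean of 10.25 CPM with Gas5 and 2.11 CPM with GFP. Of the 6 tested members 5 had positive log2 fold changes, with Esr1 at 0.10, and Trh had -0.43. Gal, Avp, Oxt, Hcrt and Pmch were in the list but not tested, with at most 0.207 CPM in any library. Septal markers had 1 of 4 lower, Trpc4 at -0.38 (edgeR adjusted p 0.0484), with Zic1 at -0.37, and a summed level of 29.9 to 36.6 CPM against 41.9 to 45.1 CPM. The septal list had 0 calls without Gas5 C or any 1 GFP library. The part of these cells in the values of Tac2, Tacr3, Cartpt or Ntsr1 was not tested.

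Ntsr2 is enriched in astrocytes, and 1 of 9 astrocyte markers rose and 0 fell, Aqp4 at a log2 fold change of 0.38 (edgeR adjusted p 0.0486), with Aldh1l1 at 0.43 (0.0805). The median of that list was 0.28, beside 0.08 for Ntsr2. Of the 9 markers 8 had positive log2 fold changes, and Slc1a2, the most abundant, had -0.21 (edgeR adjusted p 0.258). Summed over the list with Slc1a2, the mean level was 2732 CPM with Gas5 and 2988 CPM with GFP. The list had 0 calls when any 1 of Gas5 A, Gas5 C, GFP B and GFP C was left out. Reactive astrocyte genes had 4 of 7 tested members higher, with a median of 1.67 and Lcn2 and Serpina3n at 1.91 and 1.92, and their summed level was 73.3 to 146 CPM in the Gas5 libraries and 32.1 to 42.3 CPM in the GFP libraries. Without GFP B 0 of them were called and without GFP C 1. Gfap, Timp1 and the microglial gene P2ry12 are listed at 0 because each lies within another listed gene. Microglia had 0 of 5 tested markers called and 3 at an unadjusted p under 0.05, with C1qa at 0.35 and Aif1 at 0.55, and oligodendrocytes had 0 of 6 called and 4 under 0.05, with Mbp at -0.33 and Mog at -0.32. The share under 0.05 over all tested genes was 21.4%. DESeq2 called 2 of the microglial markers higher and 2 of the oligodendrocyte markers lower. The part of these lists in the values of the 8 genes was not tested.

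**Figure D4:**
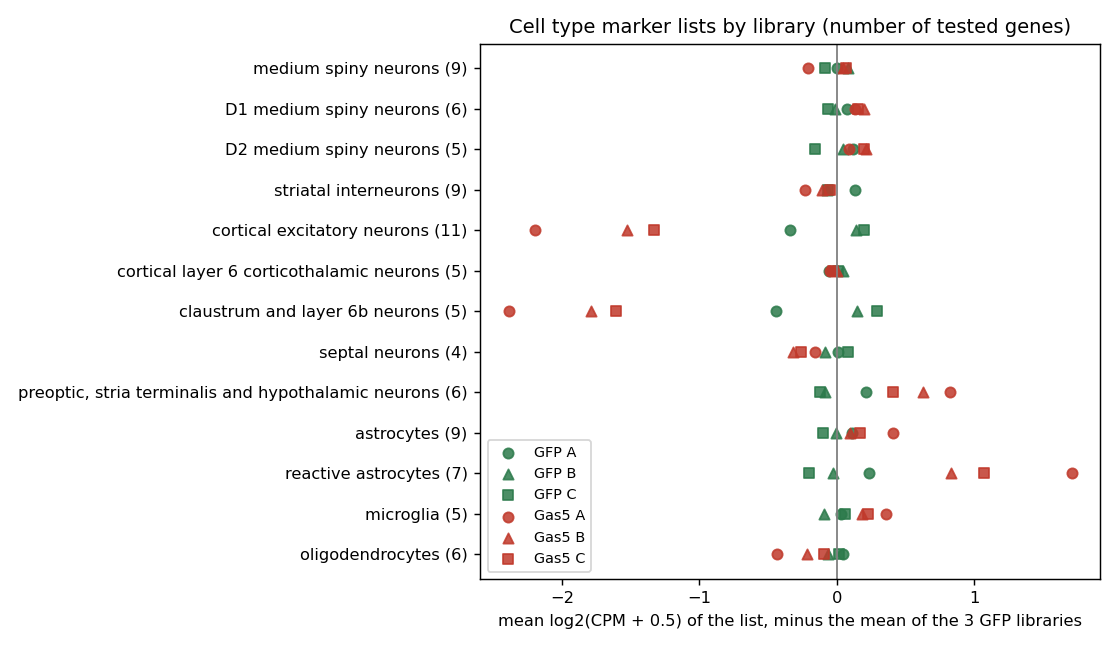
Mean log2(CPM + 0.5) of each cell type marker list in each library, minus the mean of the 3 GFP libraries (horizontal axis), with colour for the group and shape for the library letter. All Gas5 libraries lie apart from all GFP libraries for the cortical excitatory, claustral, reactive astrocyte, D1, preoptic, septal, microglial and oligodendrocyte lists, by most for the first 3, where Gas5 A is farthest out.

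**Figure D5:**
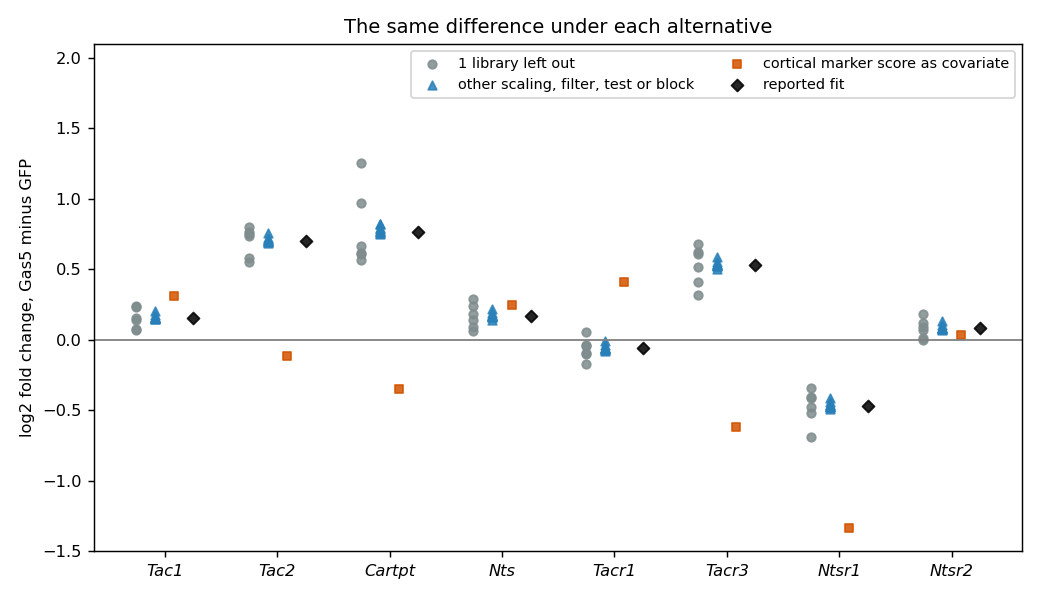
Log2 fold change of each of the 8 genes (vertical axis, Gas5 minus GFP) in the reported fit and under 16 alternatives. Scaling, filters, tests and the block leave the values close to the reported ones, leaving out 1 library moves Cartpt between 0.56 and 1.26, and the cortical marker score as covariate turns the sign of Tac2, Cartpt, Tacr1 and Tacr3.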

How the data were processed

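Bulk RNA-seq of nucleus accumbens was compared between 3 Gas5 and 3 GFP libraries, made from total RNA without ribosomal RNA with a directional kit, per the labels' protocols. The authors deposited a whole-number read count for each gene and library, not normalized. Per the submitters' processing notes, featureCounts 1.5.0-p3 and STAR 2.7.0 were used with build GRCm38, after Trim Galore 0.4.4 and bcl2fastq 1.8.4, and edgeR 3.20.9 is listed. The annotation release, strand setting and overlap setting: not given in the sources used here. Gene lengths in the files equal whole spans, so intronic reads were counted. Genes that lie wholly within another listed gene have no counts (0 of 7465 longer than 500 bases), so reads in overlaps were dropped.

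For the tests, R 4.3.3 and edgeR 4.0.16 were used (default expression filter, TMM scaling, quasi-likelihood F-test, 2-sided, Benjamini-Hochberg over 17563 genes, threshold 0.05). Standard errors are the absolute log2 fold change over the square root of F, and 95% intervals use the fit's total degrees of freedom. CPM is TMM-scaled, and log2 CPM has a pseudocount of 0.5. Exact permutation tests were added for the 8 genes. In counts simulated for this comparison (17399 genes tested), the test recovered 99 of 100 genes with a log2 change of 1 and 76 of 100 with 0.5. It also made 8 false calls. Changes were placed only in genes above a minimum mean CPM that Tac2 did not reach. The simulated spread followed the trend over all genes, while Cartpt had a biological coefficient of variation of 26.4%, beside a common value of 8.28%. Tacr3 and Ntsr1 had 15.5% and 14.1%. The recovery therefore does not describe Tac2 or Cartpt. It was pooled over genes of many levels and not worked out for genes like Tacr3 or Ntsr1. Libraries of 1 group differed by more than sampling noise (chi-square over degrees of freedom 5.04 to 25.4).

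The 8 genes and all lists were chosen with earlier results of these data known. The text names the 8 genes and Gas5. From each pathway list it names the genes past the threshold, or the 2 of smallest p where none passed. From each marker list it names the 2 of smallest p and those at 0. For each of the 8 it names the 3 genes most correlated with it (symbols that are not placeholders, mean log2 CPM of at least 1). Other genes were named after their values were seen. Alternatives were RLE, upper quartile and total count scaling, no filter, a minimum of 1 CPM in 3 libraries, limma-voom (limma 3.58.1), DESeq2 1.42.0, the replicate letter as a block, robust dispersion, a cortical marker score as covariate, and leaving out each library. The same alternatives for Gas5 and the lists were added after seeing the data.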

Additional observations from a re-analysis of the deposited data

How the results depend on the processing

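The 8 genes were refitted under 16 alternatives each. The count of members called higher was 1 without the expression filter (Cartpt, log2 fold change 0.77), 1 with the replicate letter as a replicate block (Tacr3, log2 fold change 0.54, edgeR adjusted p 0.0316) and between 0 and 1 when each library was left out; no alternative called a member lower. With 1 library left out the log2 fold change ran from 0.56 to 1.26 for Cartpt, from -0.17 to 0.0549 for Tacr1 and from -0.0014 (without GFP C) to 0.18 for Ntsr2. With the cortical marker score as covariate it was -0.11 for Tac2, 0.41 for Tacr1, -0.62 for Tacr3, -0.35 for Cartpt and 0.0675 for Chgb, and 0 genes were called higher and 0 lower. Genes called higher numbered 495 with DESeq2, 656 when no filter was applied, 510 with the block and between 4 (without GFP B) and 249 with a library left out, and those called lower between 101 (without GFP C) and 611. The cause was not tested. Whether the replicate letters pair the libraries was not settled. Deviations from the group means correlated at 0.164, 0.179 and -0.0937 for letters A, B and C. Only A and B correlated best with their own letter. With the block, 1 of 15 genes for Gq coupling and desensitisation was called higher and 1 lower. It also called 1 of 9 peptide-degrading enzymes lower. Depth limits Tac2 and Ntsr1 most, with as few as 18 and 68 reads in a library.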

Other observations

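Leaving out GFP A also moved Tac1 and Nts, to log2 fold changes of 0.24 and 0.29 with edgeR adjusted p of 0.229 and 0.247. They moved the other way without Gas5 C, to 0.07 and 0.06, and without GFP C, to 0.08 and 0.09. GFP A was the highest of the 3 GFP libraries for 6 of the 8 genes, the exceptions being Tacr1 and Ntsr1, for which GFP B was highest. It also had the lowest cortical marker score of the GFP libraries, at 3.85, and the largest total count.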
